A study of Homo sapiens with 12 samples.

Results

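Collagens, laminins and integrins are the main fibres and sheets of the extracellular matrix and the receptors that hold a cell to them. Their genes were taken by name from the gene table, as protein-coding genes named COL, a number, A and a number for a collagen chain, LAMA, LAMB or LAMC and a digit for a laminin chain, and ITGA or ITGB and a suffix for an integrin subunit, leaving out 3 genes whose names start with ITGB1BP or ITGB3BP. This gave 83 genes of the 58735 in the table, made up of 44 collagen chains, 12 laminin chains, 18 integrin alpha subunits, 8 integrin beta subunits and ITGBL1, an integrin-like gene that codes for no receptor subunit. Enough reads for a test were found for 46 of them, and the other 37 are described by their counts.

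A collagen is built from 3 chains wound into a triple helix, and the fibrillar types bundle into fibres while type IV forms the net of the basement membrane. A laminin is a cross of 1 alpha, 1 beta and 1 gamma chain that lies in the same membrane against the epithelium. An integrin is a pair of 1 alpha and 1 beta subunit that spans the plasma membrane, and the alpha subunit largely sets whether it binds collagen, laminin or proteins with an RGD (Arg-Gly-Asp) motif such as fibronectin. Normal prostate glands rest on laminin through alpha6beta4 integrin in hemidesmosomes of the basal cells, and prostate carcinoma is known for loss of beta4 and of laminin-332.

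C4.2B is a castration-resistant prostate cancer cell line of the LNCaP lineage, and polyA RNA was sequenced in 4 arms of 3 libraries each. All arms were kept for 24 hours in medium with 10% charcoal-stripped serum, which is low in androgen. The arms were DMSO as the vehicle control, the AKT kinase inhibitor ipatasertib at 0.25 µM (AKTi), the EZH2 inhibitor tazemetostat at 1 µM (EZH2i), and both agents at these doses (combination). EZH2 is the enzyme of Polycomb repressive complex 2 that places the repressive trimethyl mark on lysine 27 of histone H3. Cells of the EZH2i and combination arms had already received tazemetostat for 6 days, so the effect of the agent and of its longer exposure cannot be told apart. This is 1 cell line in culture with no stroma, and nothing states that the 3 libraries of an arm came from separate cultures beyond seeding in triplicate, so p-values measure the spread between these libraries.

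Libraries held 14133755 to 22276417 counted reads. All 7 luminal prostate markers were tested, and their summed level ran from 3349 to 3422 CPM (read counts scaled by library size) in DMSO, 5468 to 5627 with AKTi, 5742 to 6039 with EZH2i and 7965 to 8070.0 in the combination. HOXB13 was the luminal marker lower in the combination (log2 difference -0.53), with the other 6 higher. Of 4 epithelial markers, 3 were higher with EZH2i, namely KRT8 (1.14), KRT18 (0.30) and CDH1 (0.20). KRT8 was also higher with AKTi (0.16) and in the combination (0.66). KRT18 was lower with AKTi (-0.18) and higher in the combination (0.21), and CDH1 was called in neither. EPCAM was lower in all 3 arms (-0.28, -0.43 and -0.29). Markers of cells that make most matrix in tissue were low. The 7 fibroblast and smooth muscle markers summed to 3.44 to 6.55 CPM over the 12 libraries, with DCN and LUM at or under 0.468 CPM and PDGFRA at 3 reads in all. ACTA2, the smooth muscle actin of that list, lay at 0.404 to 0.959 CPM in DMSO. It was higher with EZH2i, at 1.54 to 3.68 (1.82 ± 0.42, adjusted p = 2.70e-04), and in the combination, at 0.967 to 2.48 (1.27 ± 0.43, adjusted p = 0.00931). The other tested members of that list, PDGFRB and MYH11, were not called with EZH2i (-0.72 and -0.67) or in the combination (-0.61 and -0.19). MYH11 was lower with AKTi (-1.22). Of 3 endothelial markers, CDH5 had 2 reads and PECAM1 9 reads in all, while VWF lay at 2.11 to 2.95 CPM in DMSO. VWF was called higher with AKTi, at 3.48 to 4.34, with EZH2i, at 5.65 to 6.5, and in the combination, at 4.76 to 7.38. The part of ACTA2 and VWF, or of the cells they mark, in the results was not tested. The 3 leukocyte markers summed to at most 1.35 CPM, with CD3E at 0 in every library, and the 3 basal prostate markers to at most 0.368 CPM, with KRT5 at 0 in every library. In bulk RNA, fewer cells with a transcript and less of it in each cell cannot be told apart.

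The stretches just upstream of 3 members that were low or without reads in DMSO and higher with EZH2i are shown here to let their base composition be compared, together with the stretch between COL4A1 and COL4A2, neighbours that diverge from 1 short interval. They are from RefSeq on GRCh38.p14, each read 5′ to 3′ toward the gene, and capitals mark the GC box (GGGCGG or its reverse complement CCGCCC); the TATA box (TATAAA or TTTATA) was also searched on both strands and was in none of the 4. The window ends at the base before the RefSeq start.
COL12A1, minus strand, chr6:75206054-75206303: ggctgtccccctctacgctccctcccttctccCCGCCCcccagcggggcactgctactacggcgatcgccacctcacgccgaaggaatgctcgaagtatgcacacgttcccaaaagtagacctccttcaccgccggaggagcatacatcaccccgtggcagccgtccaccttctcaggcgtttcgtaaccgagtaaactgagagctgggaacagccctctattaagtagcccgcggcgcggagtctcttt
LAMB3, minus strand, chr1:209652426-209652675: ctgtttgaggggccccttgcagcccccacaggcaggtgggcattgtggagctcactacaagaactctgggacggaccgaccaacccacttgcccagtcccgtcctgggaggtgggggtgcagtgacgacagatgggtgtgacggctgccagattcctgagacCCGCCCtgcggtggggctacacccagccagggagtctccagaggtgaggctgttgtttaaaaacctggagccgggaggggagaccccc
ITGB6, minus strand, chr2:160200273-160200522: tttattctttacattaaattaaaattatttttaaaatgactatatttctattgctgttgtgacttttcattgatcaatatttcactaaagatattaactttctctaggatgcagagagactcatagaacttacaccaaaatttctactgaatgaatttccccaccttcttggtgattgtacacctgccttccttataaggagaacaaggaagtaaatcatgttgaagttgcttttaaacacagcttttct
COL4A1 to COL4A2, plus strand, chr13:110307158-110307283: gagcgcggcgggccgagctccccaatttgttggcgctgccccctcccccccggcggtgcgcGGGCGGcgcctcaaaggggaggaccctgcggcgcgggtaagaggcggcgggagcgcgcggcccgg
The COL12A1 window of 250 bases held 21 CpG dinucleotides at 61.2% G+C, the LAMB3 window 8 at 64.0%, and the ITGB6 window 0 at 30.0%. The 126 bases between the COL4A1 and COL4A2 starts held 20 CpG dinucleotides at 80.2% G+C. A window was found for 59 of the 83 members, of which 54.2% held a GC box and 10.2% a TATA box, against 42.3% and 11.1% of the 27305 promoter windows of 250 bases. The median CpG count was 13 in members and 11 in all windows. Among all windows of 126 bases, 34.6% held a GC box. Windows for COL5A2, COL6A1, COL1A1, ITGB4 and ITGA3 were not analysed here.

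EZH2i raised most of the matrix and integrin genes that could be tested, and AKTi raised fewer. With EZH2i 30 of 46 members were higher and 4 lower than in DMSO at an adjusted p under 0.05 (edgeR quasi-likelihood test, Benjamini-Hochberg over 16646 genes), where 32.6% of all tested genes were higher and 31.5% lower. In the combination 29 were higher and 4 lower, against 38% and 35.2% of all genes. With AKTi 18 were higher and 3 lower, against 20.6% and 21.9%. The median log2 difference of the 46 members was 0.97 with EZH2i, 0.92 in the combination and 0.25 with AKTi, against medians of 0.030, 0.062 and 0.0070 over all tested genes. Called rises over 2-fold were seen in 20 members with EZH2i, 19 in the combination and 6 with AKTi, against 14.4%, 20% and 3.56% of all tested genes. Of the 46, 7 (COL2A1, COL11A2, COL17A1, COL4A4, ITGA2B, ITGB6 and LAMB3) reached the level of the low-count filter only in libraries of the EZH2i or combination arms, so these had to be high there. Without them, a count added after the data were seen, 25 of 39 members were higher and 4 lower with EZH2i, with a median of 0.82, and 25 and 4 in the combination, with a median of 0.88. ITGA7 and ITGAD, kept among the 39, reached that level in no DMSO library. ITGB8 was the member called higher with EZH2i and lower with AKTi. COL2A1, COL7A1, ITGA1, ITGA9 and ITGA10 were called in none of the 3 comparisons with DMSO. The share of all tested genes called in none was not computed here.

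**Figure D1:**
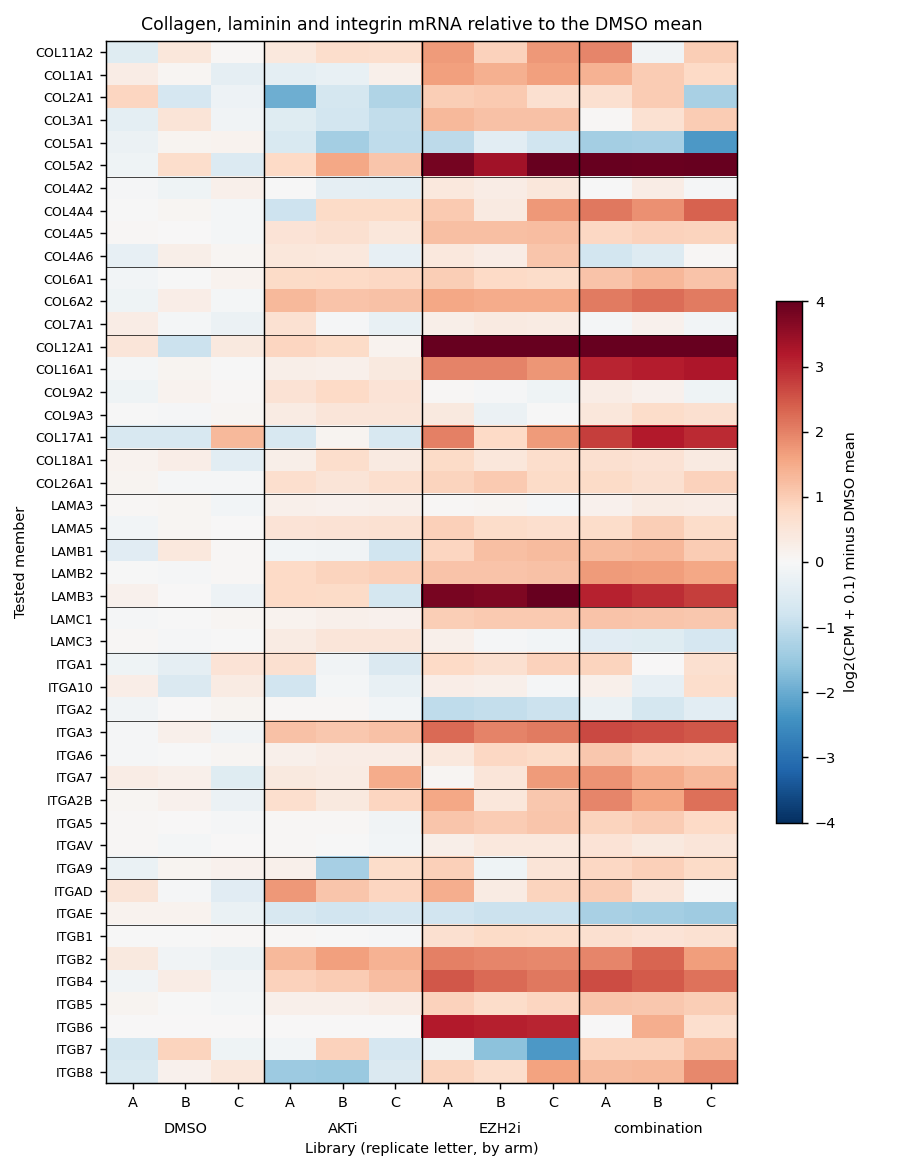
Each cell shows log2(CPM + 0.1) of a tested member (vertical axis, by class from collagens at the top to integrin beta subunits at the bottom) in a library (horizontal axis, by arm) minus the mean of the DMSO libraries, with the colour scale ending at 4 in either direction. COL5A2, COL12A1 and LAMB3 are dark red in all 6 libraries with EZH2i, ITGB6 only in the 3 with EZH2i alone, and ITGAE is blue in all 9 treated libraries.

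The summed level of each family, in CPM per kilobase of gene length so that chains of different length can be added, showed where the families differed. Collagens summed to 26.2, 27.8 and 27.8 CPM per kilobase in DMSO, 43.3, 44.1 and 43.6 with AKTi, 54.4, 50.4 and 50.0 with EZH2i and 59.1, 63.0 and 59.6 in the combination. Laminins summed to 58.5, 60.0 and 61.3 in DMSO, 75.5, 78.1 and 78.9 with AKTi, 110.2, 111.8 and 110.5 with EZH2i and 126, 127 and 120.0 in the combination. In both families the libraries of the 4 arms did not overlap. Integrin alpha subunits summed to 36.0 to 37.2 in DMSO, 34.3 to 36.5 with AKTi, 41.4 to 45.4 with EZH2i and 45.6 to 50.3 in the combination, so that AKTi overlapped DMSO and the combination lay just above EZH2i. The mean with AKTi was below that in DMSO, a direction that turned when libraries were scaled by total reads or the upper quartile. Integrin beta subunits summed to 77.7 to 79.8 in DMSO, 79.7 to 82.5 with AKTi, 128 to 136 with EZH2i and 123 to 132 in the combination. A few genes carried each sum. COL6A1 made up 37.8% of the collagen level in DMSO, LAMC1 52.7% of the laminin level, ITGAV 42.4% of the integrin alpha level and ITGB1 87.8% of the integrin beta level.

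**Figure D2:**
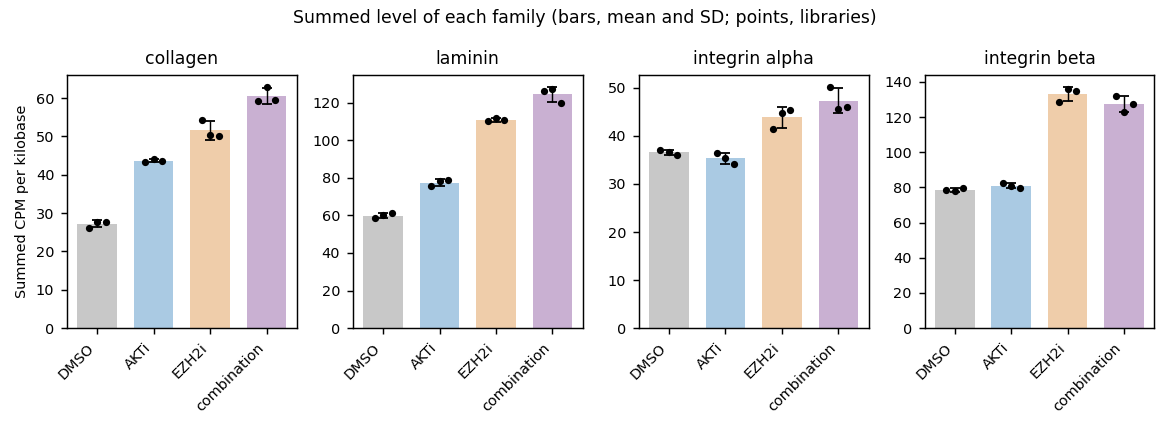
Summed CPM per kilobase (vertical axis) of collagens, laminins, integrin alpha and integrin beta subunits in the 4 arms (horizontal axis), with bars at the mean, whiskers at 1 SD and points for the 3 libraries. Collagen and laminin levels step up from DMSO through AKTi and EZH2i to the combination, from means of 27.2 to 60.6 and 59.9 to 125, while the integrin sums with AKTi lie near those in DMSO.

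Fibrillar collagens, which make the load-bearing fibres of connective tissue, were low in C4.2B cells and were raised mainly by EZH2i, with 4 of 6 tested chains higher and 1 lower with EZH2i (32.6% and 31.5% of all genes) and 2 higher and 1 lower in the combination (38% and 35.2%). COL5A2 (chr2:189031896-189225312), a chain of type V collagen that starts and limits fibre growth, was at 0.404, 0.811 and 0.288 CPM in DMSO, 0.868, 1.54 and 1.11 with AKTi, 7.83, 5.67 and 9.19 with EZH2i and 12.1, 8.71 and 10.8 in the combination. All 6 libraries with EZH2i were above all 6 without it. The log2 difference from DMSO was 3.99 ± 0.30, adjusted p = 2.11e-14 with EZH2i and 4.46 ± 0.29, adjusted p = 1.89e-16 in the combination, a 22-fold rise. With AKTi alone it was 1.31 ± 0.40, adjusted p = 0.00791, and that call was lost without DMSO replicate C (0.96) or without AKTi replicate B (1.04). COL5A1, the other main type V chain, went the opposite way. It was at 2.09, 2.66 and 2.73 CPM in DMSO, 1.59, 0.911 and 1.18 with AKTi, 1.14, 1.81 and 1.38 with EZH2i and 0.912, 0.922 and 0.423 in the combination, with every treated library below every DMSO library. The log2 difference was -1.71 ± 0.36, adjusted p = 7.68e-05 in the combination. With AKTi it was -1.02 ± 0.35, adjusted p = 0.0175, lost without DMSO replicate C (-0.94) or without AKTi replicate B (-0.87). With EZH2i it was -0.79 ± 0.34, adjusted p = 0.0396, lost without DMSO replicate B (-0.80), without DMSO replicate C (-0.71), without EZH2i replicate A (-0.68), without EZH2i replicate C (-0.79), with library size scaling (-0.64), with upper-quartile scaling (-0.67) or with a filter of 1 count over all libraries (-0.79).

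COL1A1, the alpha1 chain of type I collagen, was at 6.87, 5.83 and 4.32 CPM in DMSO, 4.27, 4.48 and 6.4 with AKTi, 17.6, 15.1 and 17.6 with EZH2i and 14.8, 11.4 and 9.73 in the combination. The EZH2i and combination libraries were all above those of the other arms, with a log2 difference of 1.59 ± 0.17, adjusted p = 1.65e-10 with EZH2i and 1.1 ± 0.17, adjusted p = 4.59e-07 in the combination. Its level was lower in the combination than with EZH2i, by -0.48 ± 0.15, adjusted p = 0.00816, a call lost without combination replicate C (-0.36). Its usual partner COL1A2 had 2 reads in all 12 libraries, both in combination replicate A. COL3A1, of type III collagen, was called with EZH2i alone, at 1.29 ± 0.43, adjusted p = 0.00827. COL11A2, a cartilage chain, had a log2 difference of 1.95 ± 0.72, adjusted p = 0.0177 with EZH2i, and that call was lost without DMSO replicate A (1.65), without DMSO replicate C (1.96), without EZH2i replicate A (1.82) or without EZH2i replicate C (1.73). COL11A2 reached the filter's level only in libraries of the EZH2i and combination arms, so it had to be high there to be tested, which limits that p-value. COL1A1, COL1A2 and COL5A1 were picked for values by library after those values were seen.

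Collagens that sit on the surface of fibres (FACIT, fibril-associated with interrupted triple helices) held the largest called rise among the tested collagens with EZH2i. COL12A1 (chr6:75084326-75206051), a fibre-linking chain found in dense connective tissue, was at 1.08, 0.369 and 1.01 CPM in DMSO, 1.45, 1.33 and 0.834 with AKTi, 13.8, 18.2 and 18.8 with EZH2i and 16.7, 16.5 and 17.3 in the combination. The groups with and without EZH2i were far apart, at or under 1.45 CPM in 6 libraries and at or above 13.8 CPM in the other 6. The log2 difference was 4.32 ± 0.21, adjusted p = 2.57e-19 with EZH2i, 4.3 ± 0.21, adjusted p = 9.11e-20 in the combination and 0.50 ± 0.33, adjusted p = 0.236 with AKTi. The combination and EZH2i differed by -0.018 ± 0.14, adjusted p = 0.931. COL16A1 (chr1:31652247-31704319), another FACIT, was at 1.41, 1.62 and 1.49 CPM in DMSO, 1.81, 1.75 and 2.02 with AKTi, 6.23, 6.31 and 5.37 with EZH2i and 13.3, 14 and 14.9 in the combination. The combination libraries were all above those with EZH2i, by 1.24 ± 0.15, adjusted p = 1.26e-08, while AKTi on its own gave 0.31 ± 0.24, adjusted p = 0.328. COL9A2 and COL9A3, type IX chains of cartilage, rose with AKTi (0.64 and 0.43 log2) and were not called with EZH2i (-0.071 and 0.064).

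The 6 type IV chains of the basement membrane assemble in fixed sets, and their genes lie head to head in pairs that diverge from a short interval. COL4A5 (chrX:108439844-108697545) was the most abundant per kilobase, at 37.9, 37.1 and 34.8 CPM in DMSO, 54, 57.4 and 50.5 with AKTi, 84.5, 83.7 and 86.6 with EZH2i and 65.3, 69 and 67.7 in the combination. All 4 arms were apart, with DMSO lowest and EZH2i highest. The log2 difference from DMSO was 1.22 ± 0.068, adjusted p = 6.28e-18 with EZH2i, 0.56 ± 0.07, adjusted p = 2.47e-08 with AKTi and 0.88 ± 0.068, adjusted p = 3.21e-14 in the combination, and the combination was below EZH2i by -0.34 ± 0.064, adjusted p = 3.86e-05. COL4A6 (chrX:108155607-108439497), its neighbour in the opposite direction, was at 1.75, 2.58 and 2.35 CPM in DMSO, 3.04, 3.01 and 1.74 with AKTi, 3.01, 2.75 and 4.82 with EZH2i and 1.27, 1.5 and 2.3 in the combination. It had a log2 difference of 0.68 ± 0.29, adjusted p = 0.0378 with EZH2i, lost without DMSO replicate A (0.54), without DMSO replicate B (0.73), without DMSO replicate C (0.72), without AKTi replicate B (0.63), without EZH2i replicate C (0.33) or with DESeq2 (0.67). The combination was below EZH2i, by -1.09 ± 0.29, adjusted p = 0.0023, lost without EZH2i replicate C (-0.76), and did not pass against DMSO, at -0.41 ± 0.31, adjusted p = 0.232.

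COL4A1 and COL4A2 make the net of nearly all basement membranes, and the interval between their RefSeq starts is the last of the stretches printed above. COL4A1 (chr13:110148963-110307233) had 0 in all 3 libraries in DMSO, 0 in all 3 libraries with AKTi, 0, 1 and 0 with EZH2i and 0, 2 and 0 in the combination. COL4A2 (chr13:110305812-110513209) was at 8.68, 7.97 and 10.2 CPM in DMSO, 8.75, 6.94 and 6.81 with AKTi, 11.9, 10.9 and 12.3 with EZH2i and 8.77, 11 and 8.64 in the combination. Across all libraries this was 3 reads for COL4A1 against 1906 for COL4A2. COL4A2 had a log2 difference of 0.38 ± 0.14, adjusted p = 0.0197 with EZH2i, lost without DMSO replicate A (0.35), without DMSO replicate B (0.25), without EZH2i replicate A (0.34) or without EZH2i replicate C (0.30), and 0.072 ± 0.14, adjusted p = 0.665 in the combination. COL4A3, a chain of the kidney filter that diverges from COL4A4, had 4, 1 and 3 reads in DMSO, 1, 5 and 6 with AKTi, 7, 13 and 12 with EZH2i and 15, 8 and 7 in the combination. COL4A4 was at 0.202, 0.221 and 0.192 CPM in DMSO, 0.0723, 0.42 and 0.417 with AKTi, 0.536, 0.292 and 0.919 with EZH2i and 1.22, 0.98 and 1.45 in the combination. COL4A4 reached the filter's level only in libraries of the EZH2i and combination arms, so it had to be high there to be tested, which limits its p-values. Its combination libraries were all above those of the other arms, with a log2 difference of 2.53 ± 0.59, adjusted p = 2.20e-04. With EZH2i the difference was 1.52 ± 0.63, adjusted p = 0.0346, lost without DMSO replicate A (1.51), without DMSO replicate B (1.52), without DMSO replicate C (1.46), without EZH2i replicate A (1.56), without EZH2i replicate C (0.94) or with a filter of 1 count over all libraries (1.51). COL4A3 shares 838 exon bases with an antisense transcript, and whether counting used strand is not given in the sources used here.

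**Figure D3:**
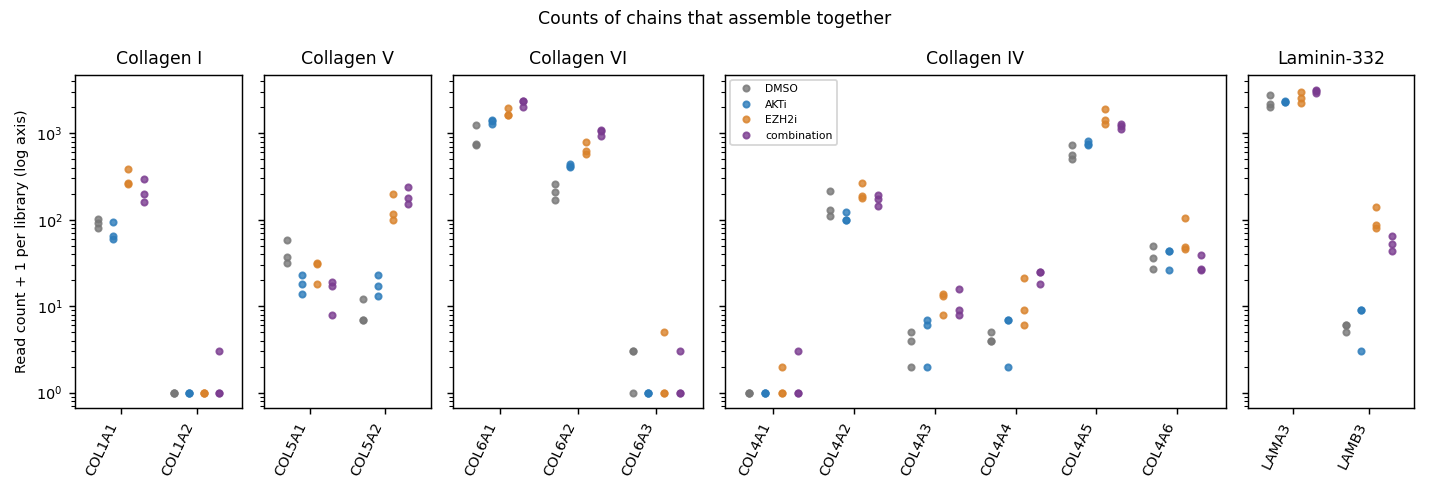
Read count + 1 in each library (vertical axis, log scale) for chains that assemble together, with colours for the 4 arms. COL1A2, COL6A3 and COL4A1 lie at or near 0 reads beside COL1A1, COL6A1, COL6A2 and COL4A2 with 59 to 2369 reads a library, and COL5A1 and COL5A2 move in opposite directions.

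Type VI collagen, which forms beaded filaments beside the basement membrane, was the collagen of highest level per kilobase. COL6A1 (chr21:45981737-46005050) was at 50.4, 54.4 and 60.3 CPM in DMSO, 93.3, 95.9 and 98.1 with AKTi, 108, 95 and 90.6 with EZH2i and 120.0, 137 and 122 in the combination. Every treated library was above every DMSO library, and the log2 difference was 0.79 ± 0.072, adjusted p = 2.19e-11 with AKTi, 0.82 ± 0.072, adjusted p = 1.36e-12 with EZH2i and 1.19 ± 0.071, adjusted p = 1.69e-17 in the combination. COL6A2 (chr21:46098097-46132849), on the same chromosome, was at 11.4, 15.5 and 12.3 CPM in DMSO, 31.8, 28.5 and 29.3 with AKTi, 38.2, 36.7 and 36.8 with EZH2i and 55.5, 61.2 and 55.6 in the combination. All 4 arms were apart in the order DMSO, AKTi, EZH2i, combination, with a 4.42-fold rise in the combination (2.14 ± 0.093, adjusted p = 1.23e-21). With a single agent it rose by 1.2 ± 0.098, adjusted p = 1.47e-12 (AKTi) and 1.52 ± 0.095, adjusted p = 1.83e-16 (EZH2i). COL6A3, the long chain that completes the type VI molecule, had 10 reads in all 12 libraries. COL7A1, of the anchoring fibrils that tie epithelium to dermis, was not called against DMSO in any arm, with log2 differences of 0.14, 0.30 and -0.0048.

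COL17A1 (chr10:104031286-104085957), a transmembrane collagen of hemidesmosomes, was at 0, 0 and 0.288 CPM in DMSO, 0, 0.0701 and 0 with AKTi, 0.536, 0.175 and 0.413 with EZH2i and 0.963, 1.33 and 1.15 in the combination. The combination libraries were all above the others, and all 6 reads in DMSO were in replicate C. COL17A1 reached the filter's level in the combination libraries alone, so its log2 difference from DMSO (3.2) is given with no test. COL26A1 rose in all 3 arms, with log2 differences of 0.62, 0.91 and 0.79. COL18A1, the source of endostatin, was called with EZH2i (0.66) and in the combination (0.53), the latter lost without DMSO replicate C (0.32) or without combination replicate A (0.46). COL18A1 shares 1563 exon bases with SLC19A1 on the opposite strand.

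Per kilobase, LAMC1 and LAMB2 were the laminin chains of highest level, and both rose in all 3 arms. LAMC1 (chr1:183023460-183145592), the gamma chain of most laminins, was at 255, 261 and 280.0 CPM in DMSO, 295, 305 and 302 with AKTi, 523, 552 and 547 with EZH2i and 589, 578 and 556 in the combination. The EZH2i and combination libraries were all above those of the other arms, with a log2 difference of 1.03 ± 0.052, adjusted p = 4.90e-19 with EZH2i and 1.11 ± 0.052, adjusted p = 1.34e-20 in the combination. AKTi gave 0.18 ± 0.052, adjusted p = 0.00568, lost without DMSO replicate B (0.14), without AKTi replicate B (0.14) or without AKTi replicate C (0.15). LAMB2 (chr3:49121114-49133118), the beta chain of laminin-521, was at 68.7, 67.4 and 71.5 CPM in DMSO, 119, 129 and 134 with AKTi, 154, 151 and 155 with EZH2i and 224, 220.4 and 204 in the combination. All 4 arms were apart, and the log2 difference was 0.88 ± 0.06, adjusted p = 1.18e-14 with AKTi, 1.15 ± 0.059, adjusted p = 6.60e-19 with EZH2i and 1.64 ± 0.059, adjusted p = 3.38e-24 in the combination, a 3.12-fold rise. LAMA5, the alpha chain that joins them, rose in all 3 arms, by 0.58, 0.79 and 0.83 log2. LAMB1 (chr7:107923799-108003255), the beta chain of laminin-511, was at 2.22, 4.13 and 3.16 CPM in DMSO, 2.82, 2.8 and 1.74 with AKTi, 5.62, 7.25 and 7.53 with EZH2i and 7.5, 7.84 and 6.28 in the combination. It rose with EZH2i (1.11 ± 0.21, adjusted p = 1.93e-05) and in the combination (1.19 ± 0.21, adjusted p = 4.80e-06), and the AKTi libraries overlapped DMSO.

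Laminin-332 is the anchoring laminin of stratified and glandular epithelium, and its chains LAMA3 and LAMB3 behaved differently. LAMA3 (chr18:23689443-23956222) was at 148, 150.1 and 133 CPM in DMSO, 166, 159.9 and 164 with AKTi, 148, 151 and 137 with EZH2i and 162, 179 and 176 in the combination. The largest of its log2 differences was 0.27 ± 0.059, adjusted p = 1.24e-04 in the combination. AKTi gave 0.19 ± 0.059, adjusted p = 0.00924, lost without DMSO replicate C (0.13) or without AKTi replicate C (0.16). EZH2i gave 0.02 ± 0.059, adjusted p = 0.783, with libraries that overlapped DMSO. LAMB3 (chr1:209614870-209652466) was at 0.337, 0.295 and 0.24 CPM in DMSO, 0.579, 0.56 and 0.139 with AKTi, 5.36, 5.08 and 6.43 with EZH2i and 3.19, 2.94 and 2.54 in the combination. It was at or above 2.54 CPM in all 6 libraries with EZH2i and at or under 0.579 CPM in the other 6. The log2 difference was 4.27 ± 0.36, adjusted p = 5.76e-13 with EZH2i, a 19.3-fold rise, and 3.31 ± 0.38, adjusted p = 8.50e-10 in the combination. LAMB3 reached the filter's level only in libraries of these arms, so it had to be high there to be tested, which limits both p-values. Every combination library was below every EZH2i library, by -0.96 ± 0.25, adjusted p = 0.00177.

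LAMC3 (chr9:131009082-131094473), a gamma chain of restricted distribution, was the laminin that went down in the combination. It was at 19.7, 18.5 and 18.9 CPM in DMSO, 23.9, 26.9 and 27 with AKTi, 21.8, 18.6 and 17.6 with EZH2i and 13.9, 13.7 and 12 in the combination. AKTi libraries were all above DMSO (0.44 ± 0.10, adjusted p = 6.10e-04) and combination libraries all below it (-0.53 ± 0.11, adjusted p = 4.39e-05). EZH2i gave 0.014 ± 0.10, adjusted p = 0.913.

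Among integrin alpha subunits, the laminin receptors rose and the collagen receptor ITGA2 fell. ITGA3 (chr17:50055968-50090481), which pairs with beta1 to bind laminin-332 and laminin-511, was at 5.99, 7.08 and 5.61 CPM in DMSO, 14, 13.3 and 14 with AKTi, 30, 24.9 and 26.5 with EZH2i and 38.9, 37.9 and 35.2 in the combination. All 4 arms were apart, and the log2 difference was 1.16 ± 0.12, adjusted p = 8.60e-10 with AKTi, 2.13 ± 0.11, adjusted p = 2.11e-18 with EZH2i and 2.6 ± 0.11, adjusted p = 1.02e-21 in the combination, a 6.05-fold rise. ITGA6 (chr2:172427354-172506282), the partner of beta1 and beta4, was at 31.6, 32.3 and 34.2 CPM in DMSO, 37.4, 40.1 and 40.1 with AKTi, 43.9, 58.2 and 55.2 with EZH2i and 69.3, 59.6 and 57.6 in the combination. It rose with EZH2i (0.68 ± 0.087, adjusted p = 1.42e-08) and in the combination (0.93 ± 0.087, adjusted p = 5.32e-12). AKTi gave 0.26 ± 0.091, adjusted p = 0.0193, lost without DMSO replicate A (0.23), without DMSO replicate B (0.22), without AKTi replicate B (0.22) or without AKTi replicate C (0.22). ITGA7 (chr12:55684568-55716043), a laminin receptor of muscle, was at 0.404, 0.369 and 0.192 CPM in DMSO, 0.434, 0.42 and 1.04 with AKTi, 0.335, 0.468 and 1.24 with EZH2i and 1.32, 1.04 and 0.906 in the combination. It was called in the combination, at 1.79 ± 0.56, adjusted p = 0.0046, where every library was above every DMSO library, and the EZH2i libraries overlapped DMSO. ITGA7 reached the filter's level in libraries of the AKTi, EZH2i and combination arms but in none of DMSO. It had to be high outside DMSO to be tested, which limits that p-value.

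ITGA2 (chr5:52989326-53094779), the alpha subunit of the main epithelial collagen receptor, was at 36.2, 40.3 and 42.5 CPM in DMSO, 40.9, 40.7 and 36.4 with AKTi, 19.6, 20.5 and 21.7 with EZH2i and 33.2, 24.1 and 29.2 in the combination. EZH2i libraries were the lowest and combination libraries lay between them and DMSO. The log2 difference was -0.95 ± 0.097, adjusted p = 8.60e-11 with EZH2i, -0.46 ± 0.094, adjusted p = 4.18e-05 in the combination and -0.016 ± 0.093, adjusted p = 0.909 with AKTi. The other tested collagen receptors, ITGA1 and ITGA10, were called in no comparison with DMSO, and ITGA1 shares 2564 exon bases with other genes, among them PELO. The log2 differences with EZH2i were 0.75 for ITGA1 and 0.061 for ITGA10.

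All 3 tested RGD receptors were called higher with EZH2i and in the combination, as were 32.6% and 38% of all genes. None was called with AKTi, where 20.6% of all genes were higher and 21.9% lower. Of the 3, ITGA2B reached the filter's level only in libraries of the EZH2i and combination arms. It had to be high there to be tested, which limits its p-values. ITGAV (chr2:186590065-186680901), the vitronectin receptor and partner of several beta subunits, was at 131, 121 and 129.8 CPM in DMSO, 132, 126 and 119 with AKTi, 149, 170.1 and 171 with EZH2i and 185, 168 and 177 in the combination. The libraries with EZH2i were all above those without it, by a small margin, with a log2 difference of 0.36 ± 0.061, adjusted p = 2.63e-06 with EZH2i and 0.47 ± 0.06, adjusted p = 8.84e-09 in the combination. ITGA5, the fibronectin receptor, rose by 1.09 ± 0.087, adjusted p = 1.43e-13 with EZH2i and 0.91 ± 0.087, adjusted p = 1.09e-11 in the combination. ITGA2B, the platelet fibrinogen receptor, was called in the combination at 2.38 ± 0.59, adjusted p = 4.62e-04, and with EZH2i at 1.42, a call lost without DMSO replicate A (1.48), without DMSO replicate B (1.49), without DMSO replicate C (1.23), without AKTi replicate A (1.4), without AKTi replicate B (1.37), without AKTi replicate C (1.37), without EZH2i replicate A (1.08), without EZH2i replicate C (1.38), without combination replicate A (1.42), without combination replicate B (1.42), without combination replicate C (1.42), with DESeq2 (1.45), with a filter of 1 count over all libraries (1.41) or with the replicate block (1.41).

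ITGAE (chr17:3714628-3801243), known as CD103 on lymphocytes that bind E-cadherin, was the alpha subunit that fell in every arm. It was at 51.9, 52.1 and 39.5 CPM in DMSO, 30.4, 27.6 and 29.5 with AKTi, 28.1, 25.9 and 26.1 with EZH2i and 19.4, 18.4 and 17.8 in the combination. The 9 treated libraries were all below the 3 DMSO libraries, and the combination libraries were the lowest. The log2 difference was -0.71 ± 0.093, adjusted p = 8.55e-08 with AKTi, -0.83 ± 0.092, adjusted p = 5.42e-10 with EZH2i and -1.36 ± 0.096, adjusted p = 2.13e-15 in the combination. ITGAD, another leukocyte alpha subunit, was called with AKTi alone (1.47), lost without DMSO replicate B (1.42), without DMSO replicate C (1.16), without AKTi replicate A (1.15), without AKTi replicate B (1.53) or with a filter of 1 count over all libraries (1.46). ITGAD also reached the filter's level in no DMSO library, which limits that call. ITGA9 was called in no arm.

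The beta1 subunit, the partner of most alpha subunits, made up most of the beta level per kilobase and rose with EZH2i. ITGB1 (chr10:32900319-33005792) was at 411, 409 and 426 CPM in DMSO, 426, 413 and 405 with AKTi, 648, 709 and 696 with EZH2i and 652, 601 and 640.4 in the combination. The 6 libraries with EZH2i were at or above 601 CPM and the 6 without it at or under 426 CPM. The log2 difference was 0.72 ± 0.052, adjusted p = 1.08e-14 with EZH2i, 0.60 ± 0.052, adjusted p = 6.59e-13 in the combination and -0.0024 ± 0.052, adjusted p = 0.976 with AKTi. ITGB5 (chr3:124761948-124901418), an RGD partner of alphaV, was at 60.4, 56.1 and 53.2 CPM in DMSO, 65, 65.6 and 68.8 with AKTi, 107, 95 and 102 with EZH2i and 123, 120.3 and 113 in the combination. It rose in the combination by 1.07 ± 0.064, adjusted p = 2.26e-17 and with EZH2i by 0.84 ± 0.065, adjusted p = 5.26e-14, with the combination above EZH2i by 0.23 ± 0.062, adjusted p = 0.00234. AKTi gave 0.23 ± 0.067, adjusted p = 0.00428, lost without AKTi replicate C (0.19).

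ITGB4 (chr17:75721328-75757818), which pairs with ITGA6 to anchor hemidesmosomes to laminin-332, was at 2.96, 3.98 and 2.93 CPM in DMSO, 6.29, 6.66 and 7.79 with AKTi, 18.7, 16.1 and 14.3 with EZH2i and 20.6, 18.2 and 14.9 in the combination. AKTi libraries were above DMSO and the libraries with EZH2i were above both, with log2 differences of 1.09 ± 0.18, adjusted p = 4.98e-06, 2.32 ± 0.16, adjusted p = 3.73e-15 with EZH2i and 2.46 ± 0.16, adjusted p = 2.59e-16 in the combination. ITGB2 (chr21:44885953-44931989), the leukocyte beta subunit, was at 1.75, 1.18 and 1.05 CPM in DMSO, 3.33, 4.27 and 3.55 with AKTi, 5.56, 5.32 and 5.15 with EZH2i and 5.37, 6.86 and 4.35 in the combination. Every treated library was above every DMSO library, with log2 differences of 1.5 ± 0.26, adjusted p = 1.06e-05 with AKTi, 2.02 ± 0.25, adjusted p = 4.70e-09 with EZH2i and 2.07 ± 0.24, adjusted p = 1.61e-09 in the combination. Beside these rises, PTPRC, the pan-leukocyte marker, was at or under 0.919 CPM in all 12 libraries and CD3E at 0.

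ITGB8 (chr7:20330702-20415754), an alphaV partner that activates TGF-beta, was at 0.337, 0.664 and 0.815 CPM in DMSO, 0.145, 0.14 and 0.348 with AKTi, 1.14, 0.994 and 1.98 with EZH2i and 1.52, 1.56 and 2.48 in the combination. The libraries of the combination were all above DMSO, with a log2 difference of 1.56 ± 0.44, adjusted p = 0.00175. EZH2i gave 1.16 ± 0.45, adjusted p = 0.0229, lost without DMSO replicate A (0.88), without DMSO replicate B (1.15) or without EZH2i replicate C (0.74). AKTi gave -1.51 ± 0.62, adjusted p = 0.045, lost without DMSO replicate B (-1.5), without DMSO replicate C (-1.2), without AKTi replicate A (-1.32), without AKTi replicate B (-1.32), without combination replicate A (-1.51), without combination replicate B (-1.51), with library size scaling (-1.46), with upper-quartile scaling (-1.46) or with a filter of 1 count over all libraries (-1.52). ITGB6 (chr2:160099666-160200313), the alphaV partner of injured and neoplastic epithelium, had 0 in all 3 libraries in DMSO, 0 in all 3 libraries with AKTi, 12, 13 and 16 with EZH2i and 0, 3 and 1 in the combination. Reads were found in all 3 EZH2i libraries and in none of the 6 of DMSO and AKTi, so against a floor of 3 reads over the arm the level with EZH2i was at least 12.5-fold above DMSO. It passed the low-count filter through the EZH2i libraries alone, so it is given with no test. ITGB6 shares 966 exon bases with an unnamed gene on its own strand. ITGB7 (chr12:53191318-53207307), the partner of alphaE and alpha4, was at 0.202, 0.811 and 0.336 CPM in DMSO, 0.362, 0.841 and 0.209 with AKTi, 0.335, 0.0584 and 0 with EZH2i and 0.811, 0.807 and 1.03 in the combination. EZH2i gave -1.86 ± 0.83, adjusted p = 0.0483, lost without DMSO replicate B (-1.26), without DMSO replicate C (-2.05), without AKTi replicate A (-1.88), without EZH2i replicate B (-1.56), without EZH2i replicate C (-1.21), without combination replicate A (-1.86), without combination replicate B (-1.86), without combination replicate C (-1.86), with library size scaling (-1.72), with upper-quartile scaling (-1.74), with a filter of 1 count over all libraries (-1.85) or with the replicate block (-1.84). ITGB7 shares 1881 of its exon bases with ZNF740 on the opposite strand. ITGB6 and ITGB7 were picked for values by library after those values were seen.

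**Figure D4:**
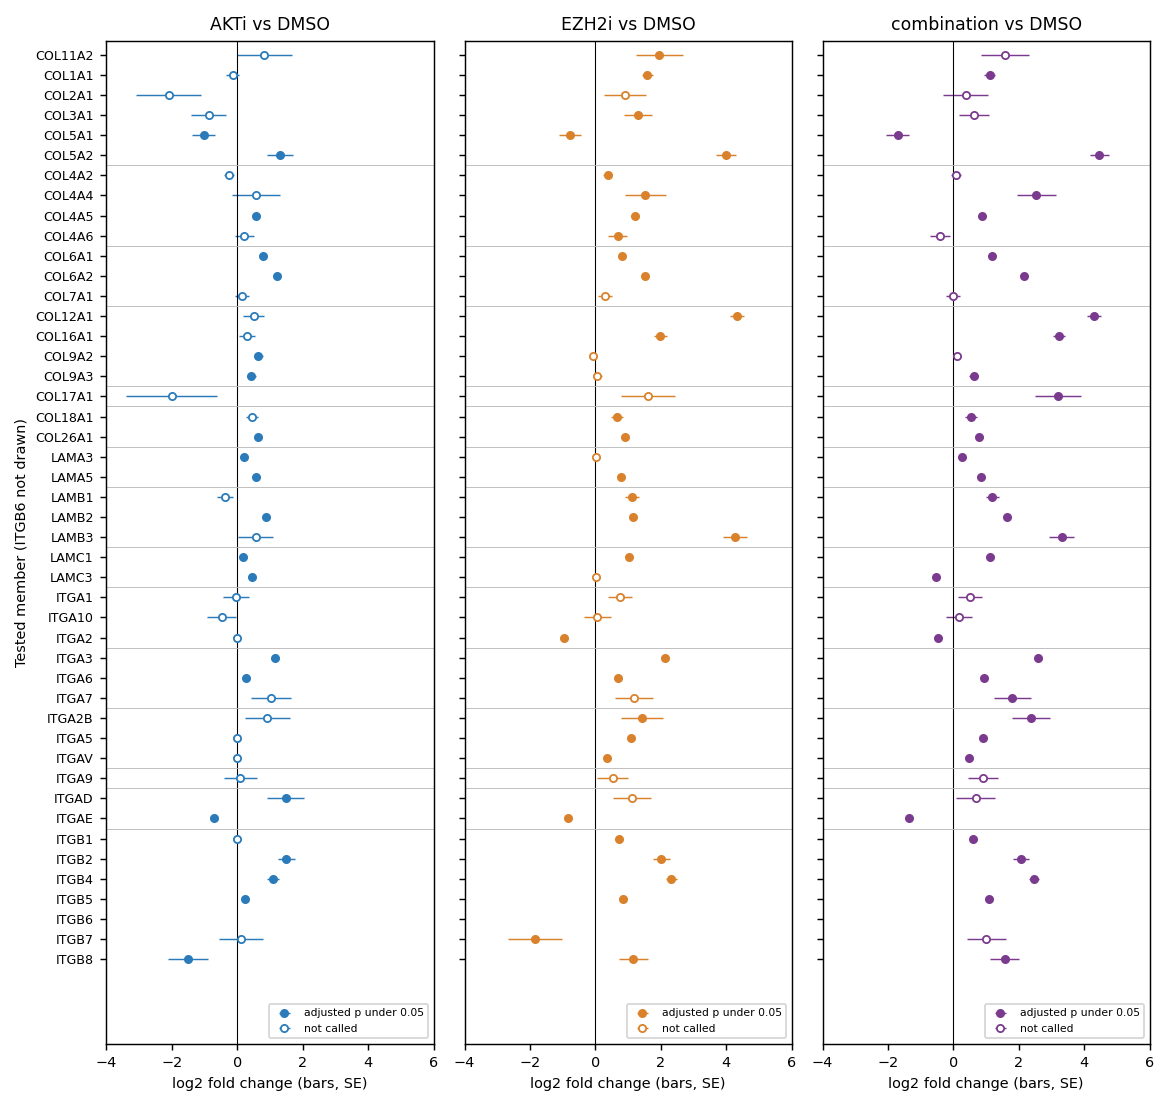
Log2 difference from DMSO (horizontal axis, points with SE whiskers) of 45 tested members (vertical axis) for AKTi, EZH2i and the combination in 3 panels, with filled points at an adjusted p under 0.05. COL5A2, COL12A1 and LAMB3 lie beyond 3 with EZH2i and in the combination, COL5A1 and ITGAE lie left of 0 in all 3 panels, and ITGB6, which has no reads in DMSO, is not drawn.

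The combination was then set against each single agent. Against AKTi, 27 members were higher and 4 lower in the combination, where 32.1% of all genes were higher and 32.1% lower. Against EZH2i, 13 were higher and 8 lower, where 21.1% were higher and 25.7% lower, with a median log2 difference of 0.082. Between the single agents, 26 were higher and 6 lower with EZH2i than with AKTi, where 25.4% were higher and 25.1% lower. The level in the combination was above both single agents for 9 members, COL5A2, COL6A1, COL6A2, COL16A1, COL17A1, LAMB2, ITGA3, ITGA6 and ITGB5, and below both for ITGAE and LAMC3, where 15.5% of all genes were above both and 19.7% below both. Of these 9, COL17A1 reached the filter's level in the combination libraries alone, so it had to be high there. Its rise over EZH2i (1.6) is given with no test. The rise of COL5A2 over EZH2i (0.47 in the main comparison) was lost without AKTi replicate A (0.44), without EZH2i replicate A (0.46), without EZH2i replicate B (0.30), without combination replicate A (0.35), without combination replicate C (0.46), with DESeq2 (0.47) or with a filter of 1 count over all libraries (0.45). That of ITGA6 (0.24) was lost without EZH2i replicate A (0.10) or without combination replicate A (0.15). 5 members raised by EZH2i were lower in the combination than with EZH2i, namely COL1A1, COL4A5, COL4A6, LAMB3 and ITGB6, as were 4.84% of all genes. ITGB6 passed the low-count filter through the EZH2i libraries alone, so it had to be high there and is given with no test. LAMB3 reached the filter's level only in libraries of the EZH2i and combination arms, so it also had to be high there.

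The interaction, the log2 effect of the combination minus the sum of the effects of AKTi and EZH2i, asks whether the agents add up. It was positive for 4 members and negative for 11 at an adjusted p under 0.05, against 10.7% and 17.5% of all tested genes, with a median of -0.19 in members and -0.049 over all genes. In ITGB2 the single effects of 1.5 and 2.02 met a combination effect of 2.07, an interaction of -1.45 ± 0.33, adjusted p = 8.58e-04. LAMC3 had -0.99 ± 0.15, adjusted p = 2.54e-06, with its AKTi rise turned to a fall when EZH2i was present (-0.54). ITGB4 had -0.95 ± 0.22, adjusted p = 0.00116, COL4A5 -0.90 ± 0.095, adjusted p = 2.20e-09 and ITGA3 -0.70 ± 0.16, adjusted p = 6.60e-04, all of them higher in the combination than in DMSO. COL4A6 had -1.31 ± 0.42, adjusted p = 0.0174, lost without AKTi replicate B (-1.15), without EZH2i replicate C (-0.96) or without combination replicate A (-1.14). On the positive side COL16A1 had 0.93 ± 0.29, adjusted p = 0.0122, and ITGA2, a gene lowered less in the combination than by EZH2i alone, had 0.50 ± 0.14, adjusted p = 0.00449. ITGB8 had 1.92 ± 0.73, adjusted p = 0.046, lost without DMSO replicate B (1.91), without DMSO replicate C (1.6), without AKTi replicate A (1.69), without AKTi replicate B (1.73), without EZH2i replicate A (1.78), without EZH2i replicate B (1.73), without combination replicate C (1.66) or with a filter of 1 count over all libraries (1.9). ITGB7 had 2.75 ± 1.03, adjusted p = 0.0417, lost without DMSO replicate B (2.14), without DMSO replicate C (2.93), without AKTi replicate A (2.56), without AKTi replicate C (2.42), without EZH2i replicate B (2.45), without EZH2i replicate C (2.09), without combination replicate A (2.8), without combination replicate B (2.8), without combination replicate C (2.63) or with a filter of 1 count over all libraries (2.72). The other negative calls were COL26A1, COL6A2, LAMA5, COL6A1 and LAMB2, which rose in all 3 arms by less in the combination than the sum.

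**Figure D5:**
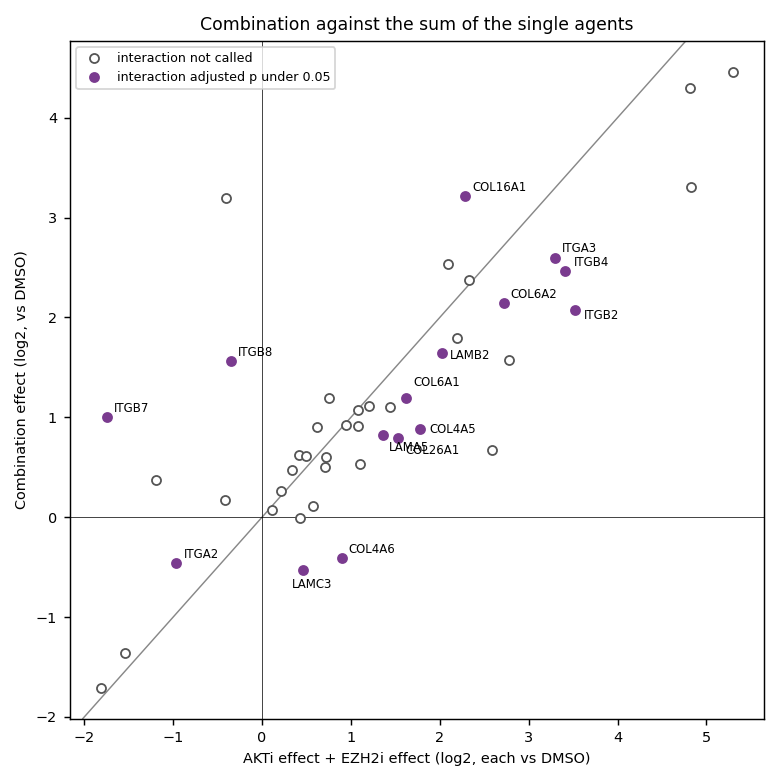
Combination effect (vertical axis) against the sum of the AKTi and EZH2i effects (horizontal axis), both log2 differences from DMSO, for 45 tested members without ITGB6, with the line of equality and filled points for interactions at an adjusted p under 0.05. Filled points to the right of 1 lie below the line except COL16A1, and ITGB7, ITGB8 and ITGA2 lie above it.

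Genes that make, cut or bind this matrix but fall outside the name rule are given for the combination, where 38% of all genes were higher and 35.2% lower than in DMSO. Of 12 tested other matrix proteins 11 rose and 0 fell, with a median log2 difference of 2.20. The list was chosen with earlier results of these data known. FN1, the gene of fibronectin and ligand of ITGA5, was at 1027, 1165 and 1162 CPM in DMSO, 2369.6, 2602 and 2411 with AKTi, 3182, 3362 and 3418 with EZH2i and 5975, 5856 and 5867 in the combination, with all 4 arms apart and a log2 difference of 2.4 ± 0.057, adjusted p = 1.37e-29. THBS1, thrombospondin-1, rose by 4.19 ± 0.067, adjusted p = 1.29e-34 in the combination and by 3.64 with EZH2i. TNC, tenascin-C, was at 0.0673, 0 and 0.048 CPM in DMSO, 0.362, 0.0701 and 0.0695 with AKTi, 7.3, 8.12 and 8.82 with EZH2i and 8.26, 8.59 and 9.42 in the combination, from 2 reads in all in DMSO to at least 109 in each EZH2i library. TNC passed the low-count filter through libraries with EZH2i alone, so it had to be high there to be counted among the 12. FBLN1, fibulin-1, rose by 3.04.

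Of 20 tested enzymes and chaperones of collagen synthesis 9 were higher and 9 lower in the combination, beside 38% and 35.2% of all genes. LOXL1 and LOXL2, lysyl oxidases that cross-link fibres, rose by 2.5 and 1.76 log2, PLOD2, a lysyl hydroxylase, rose by 2.23, and ADAMTS3, a procollagen protease, was lower (-1.3). Of 6 tested proteases and inhibitors 4 rose and 1 fell, a small list to set beside those shares, the largest change being in the inhibitor TIMP2 (2.17 ± 0.076, adjusted p = 1.67e-24), with the metalloproteinase genes MMP11, MMP24 and MMP16 at 1.49, 1.38 and 0.93.

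Of 21 tested genes of the adhesion machinery inside the cell 7 were higher and 8 lower in the combination, shares near those of all genes (38% and 35.2%), with a median of -0.084. FERMT1, kindlin-1, an activator of beta integrins, was at 39.1, 42.4 and 39.7 CPM in DMSO, 31.7, 37.3 and 37.3 with AKTi, 9.44, 10.8 and 11.1 with EZH2i and 5.83, 6.92 and 6.52 in the combination. It was lower with EZH2i (-1.95 ± 0.10, adjusted p = 1.05e-18) and in the combination (-2.65 ± 0.11, adjusted p = 1.97e-22), with the libraries of those arms far below the rest. TLN2, talin-2, rose (2.05) and PARVB, beta-parvin, fell by less than FERMT1 (-1.32). ITGB3BP, which despite its name codes for a centromere protein, was lower (-1.55). Of 9 tested other matrix receptors 5 rose and 3 fell, the share lower being near that of all genes (35.2%). BCAM, the Lutheran receptor of laminin alpha5, rose by 2.99 ± 0.13, adjusted p = 5.77e-22, and the syndecans SDC4, SDC3 and SDC2, proteoglycan co-receptors, rose by 2.45, 1.9 and 1.48. SDC2 was at 4.71, 5.38 and 3.26 CPM in DMSO, 2.82, 1.68 and 2.02 with AKTi, 38.2, 35.6 and 37 with EZH2i and 11.4, 13.1 and 12 in the combination, so that the combination lay between EZH2i and DMSO.

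The 37 members without a test had at most 83 reads over the 12 libraries. 5 had none at all, among them ITGB3, ITGAM and COL9A1, 14 had 1 to 10 reads, and 18 had 11 or more. ITGBL1 had 0 in all 3 libraries in DMSO, 0 in all 3 libraries with AKTi, 8, 9 and 0 with EZH2i and 6, 0 and 1 in the combination, and 4435 of its 6176 exon bases are shared with other genes, most of them with FGF14 on the opposite strand. COL20A1 had 0, 1 and 0 reads in DMSO, 0 in all 3 libraries with AKTi, 9, 5 and 9 with EZH2i and 9, 4 and 7 in the combination. Both were found mainly in libraries with EZH2i. COL27A1 had 11 of its 23 reads in combination replicate C. LAMA4 had 3, 2 and 7 reads in DMSO, 2, 2 and 4 with AKTi, 7, 17 and 14 with EZH2i and 3, 0 and 2 in the combination, with 2 EZH2i libraries highest and the other level with a DMSO library. COL1A2, ITGAX, ITGAM and ITGB3 were not detectable above 3 reads in all at this depth.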

How the data were processed

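PolyA RNA of C4.2B cells in 4 arms of 3 libraries was sequenced. The authors aligned reads to hg38 with STAR and counted them per gene with HTSeq, and the deposited counts are raw whole numbers (14133755 to 22276417 per library). Versions, annotation and strand setting are not given in the sources used here. A deposited table of DESeq2-normalized values was not used.

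Counts were fitted with edgeR 4.0.16 (R 4.3.3) by quasi-likelihood, with TMM scaling, filterByExpr (minimum count 10, minimum total 15), 1 mean per arm over all 12 libraries and Benjamini-Hochberg adjustment over 16646 genes, called at an adjusted p under 0.05. SE is the log2 difference divided by the square root of F. CPM used TMM library sizes, and levels per kilobase used the deposited gene length. Families were summed. Members, classes and lists were chosen with earlier results of these data known. Values by library are given for the 3 members of highest level per kilobase in each family, the 4 collagens, 3 laminins and 6 integrins with the largest called log2 difference in the combination at 1 CPM or more in an arm, the 3 largest called interactions in each direction at that level, and the chains of collagen IV and laminin-332 (1 item is not reported here), plus members named as picked later. Of the pathway genes, up to 4 a list were named by the same measure, plus FN1.

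Promoter windows came from RefSeq (GRCh38.p14). All 83 members were found in GENCODE v44, 81 with both ends within 5000 bases, and 26 tested members share exon bases with another gene. Libraries of an arm differed by a chi-square of 2.63 to 8.13 per gene, more than sampling noise. In simulated counts for the combination against DMSO, edgeR recovered 142 of 184 tested genes changed 2-fold with 2 false calls among 15088 genes. Only 200 genes were changed there, in either direction, so error rates under the wider changes of these data were not tested. Alternatives were DESeq2 1.42.0, other scalings, other filters, a replicate block, fits of 6 libraries and leaving out each library.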

Additional observations from a re-analysis of the deposited data

Results flagged for a closer look

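For 15 tested members the effect of AKTi differed with and without EZH2i, by the interaction test at an adjusted p under 0.05, and each interaction is given here on the log2 scale. The interaction was negative for 11 and positive for 4 of the 46 tested members, where 17.5% and 10.7% of all tested genes were so called. It was negative for ITGB2 (-1.447), COL4A6 (-1.308), LAMC3 (-0.9865), ITGB4 (-0.9504), COL4A5 (-0.9002), COL26A1 (-0.7396), ITGA3 (-0.6966), COL6A2 (-0.5738), LAMA5 (-0.5386), COL6A1 (-0.4268) and LAMB2 (-0.3848). It was positive for ITGA2 (0.5014), COL16A1 (0.9309), ITGB8 (1.919) and ITGB7 (2.75). The calls of COL4A6, ITGB8 and ITGB7 were lost in several alternatives. ITGB7 had at most 17 reads a library, and 1881 of its exon bases lie under ZNF740 on the opposite strand.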

How the results depend on the processing

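Counts of called members kept their size within 1.5 times in most alternatives. Members lower with AKTi fell from 3 to 1 when at least 10 counts were required in every library. Members lower with EZH2i went from 4 to 2 with library size scaling, with upper-quartile scaling, and with a filter of 1 count over all libraries or of 10 counts in each. Members lower in the combination than with EZH2i went from 8 to 5 with at least 10 counts in every library, members lower with EZH2i than with AKTi from 6 to 3 with library size or upper-quartile scaling, and positive interactions from 4 to 2 with either filter. In each filter the set of genes tested differs, and the cause of the other moves was not tested. The summed integrin alpha level with AKTi, as a ratio to DMSO, turned above 1, to 1.008 with library size and 1.007 with upper-quartile scaling.

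Leaving out 1 library gave 1 to 3 members lower with AKTi (1 without DMSO replicate C or AKTi replicate B), 2 to 4 lower with EZH2i (2 without DMSO replicate B, DMSO replicate C or EZH2i replicate C), 6 to 12 lower in the combination than with EZH2i, 3 to 6 lower with EZH2i than with AKTi (3 without EZH2i replicate C) and 2 to 5 positive interactions. Members higher than DMSO ranged over 14 to 18 with AKTi, 25 to 31 with EZH2i and 29 to 31 in the combination.

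Library size scaling moved the median of all genes by 0.14 log2 with EZH2i and 0.20 in the combination, and upper-quartile scaling by 0.12 and 0.18. Relative to that median, the members' median with EZH2i was 0.94 under each of the 4 scalings, and 0.86 or 0.85 in the combination. A change of scaling moves all genes of a comparison by nearly the same amount, so this difference could hardly change. LAMA3 with EZH2i was called higher under library size (0.17) and upper-quartile scaling (0.14), each slightly above the shift. Under both, ITGA1 was called with EZH2i (0.89 and 0.87) and ITGA9 in the combination (1.1 and 1.08). With at least 1 count in total, COL20A1 and ITGBL1 were also called higher with EZH2i, and COL27A1, COL6A6 and COL20A1 in the combination. Replicate letters did not pair samples (correlations of same-letter deviations -0.058 to 0.069), and with the replicate block 29 members were higher and 3 lower with EZH2i, 29 and 4 in the combination and 18 and 3 with AKTi. Members under about 10 reads a library are limited by depth.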
